A study of Mus musculus with 2 samples.

Results

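Col1a2 (ENSMUSG00000029661) lies on the plus strand of mouse chromosome 6 from 4504814 to 4541544 in the GRCm38 genome with the GENCODE M21 annotation. Its CG methylation was read over the gene and 50 kb on either side in bins of 200 bp. Of the 2487317 bins of the genome that had enough calls to be tested, 213 belonged to this region, and each bin that gained 40 percentage points or more in TCKO was placed in an exon, an intron, a flank or the enhancer zone 20 to 13 kb before the gene start. The region was set by name and position. The gene was chosen with earlier results of these data known, so its ranks among genes below are descriptions.

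The measurements came from whole genome bisulfite sequencing (WGBS) of primary osteoblasts taken from the calvaria of 3-day-old mice and cultured for 3 days. One group was wild type (WT). The other (TCKO) carried floxed alleles of Tet1, Tet2 and Tet3 deleted by Prx1-Cre, a transgene active in limb and skull mesenchyme. Both were on the C57BL/6 strain, and whether the WT mice carried floxed alleles or Cre is not given in the sources used here. There was 1 library per genotype, so the values have no replicate check, every test compares 2 libraries and not the genotypes, and intervals cover counting error only. A level of 0% allows up to 3 methylated calls of the total given beside it. In cells prepared from tissue, a change in the mix of cells and a change within each cell cannot be told apart.

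Col1a2 encodes the α2 chain of type I collagen, the main protein of bone matrix, which assembles with α1 chains from Col1a1 into a triple helix. Its promoter and far-upstream enhancer are known to drive transcription in fibroblasts and osteoblasts. TET enzymes oxidise 5-methylcytosine (5mC) to 5-hydroxymethylcytosine (5hmC) and further products that lead back to unmethylated cytosine. Bisulfite sequencing reads 5mC and 5hmC alike as methylated.

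The WT library held 261127589 calls over CG cytosines and the TCKO library 223645082, and the methylation level over all calls was 70.2% and 76.3%. At exon 11 of the longest coding transcript, calls fell from 62 to 1 for Tet1, from 155 to 46 for Tet2 and from 85 to 26 for Tet3. The ratio of TCKO to WT calls was 0.297 for Tet2 and 0.306 for Tet3, beside 0.856 over all calls. DNA with this exon of Tet2 and Tet3 was thus still present in the library labelled TCKO, while for Tet1 there was only 1 call. Methylation of marker promoters, from 1 kb before to 100 bp after the TSS, was read as a check of the cell type. Of 6 osteoblast markers, 1 was below 20% in WT (Col1a1, 0 of 33 calls), and the highest was at 71.2%. All 3 chondrocyte markers were below 20% in both libraries, while 4 myeloid markers were at 58% to 77.3% in WT, 3 endothelial markers at 34.4% to 82.8% and 3 muscle markers at 41.1% to 56%. Markers of several cell types moved between the libraries. The endothelial Pecam1 went from 44% to 81.2% and Tek from 34.4% to 77.7%. The osteoblast marker Ibsp went from 46.3% to 86.6% and Runx2 from 24.2% to 42.2%, while Alpl was at 41.6% and 41.3%. The muscle marker Myod1 fell from 56% to 42.6%. These promoters hold no measure of expression, and the part of the cell mix in the results below was not tested.

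The stretches below carry the main contrasts of the locus. They are printed from the plus strand of GRCm38, 5′ to 3′, in lower case with each CpG in capitals. The enhancer bin lies in an interval that was mostly unmethylated in WT, and it was higher in TCKO at each CpG. The promoter stretch shows CpG-dense DNA that had no methylated call in either library, at few calls. The exon 14, intron 29 and intron 6 bins had the largest gains among the testable bins of the gene. The exon 14 bin is named by the exon it touches and lies mostly in intron 13. The coordinates are, in order, chr6:4488001-4488200, chr6:4505370-4505492, chr6:4518601-4518800, chr6:4525201-4525400 and chr6:4513001-4513200.
Enhancer bin: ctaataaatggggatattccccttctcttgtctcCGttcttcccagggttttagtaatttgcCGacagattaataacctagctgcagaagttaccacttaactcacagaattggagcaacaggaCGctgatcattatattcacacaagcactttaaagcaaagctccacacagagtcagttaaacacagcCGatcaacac
Promoter before the full-length TSS: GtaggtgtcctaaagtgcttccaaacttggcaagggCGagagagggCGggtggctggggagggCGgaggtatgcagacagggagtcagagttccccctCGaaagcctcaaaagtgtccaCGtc
Exon 14 bin: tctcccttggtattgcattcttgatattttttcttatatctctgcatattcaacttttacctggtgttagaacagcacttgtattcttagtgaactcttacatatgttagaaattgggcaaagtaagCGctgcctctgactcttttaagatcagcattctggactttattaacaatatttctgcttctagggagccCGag
Intron 29 bin: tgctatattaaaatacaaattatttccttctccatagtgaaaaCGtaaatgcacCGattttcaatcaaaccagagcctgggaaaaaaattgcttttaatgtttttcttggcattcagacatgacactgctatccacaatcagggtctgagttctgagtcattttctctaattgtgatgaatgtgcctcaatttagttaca
Intron 6 bin: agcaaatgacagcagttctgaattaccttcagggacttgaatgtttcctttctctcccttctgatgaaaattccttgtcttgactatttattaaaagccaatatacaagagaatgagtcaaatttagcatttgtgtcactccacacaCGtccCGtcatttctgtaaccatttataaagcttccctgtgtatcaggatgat

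Over the whole gene, the methylation level (methylated calls as a percentage of all calls) was 37.7% in WT from 4151 calls (36.2% to 39.1% as the 95% Wilson interval) and 77.8% in TCKO from 3511 calls (76.4% to 79.1%). The gain was 40.1 points, with a 95% Newcombe interval of 38.1 to 42.1. The flanks moved far less. The level went from 64.4% to 77% in the outer 30 kb of the upstream flank, a gain of 12.6 points (10.4 to 14.7). From 13 to 2 kb before the gene start it went from 80.3% to 88%, a gain of 7.65 points (4.43 to 10.8), the smallest of the zones with over 100 calls in each library. From 10 to 50 kb past the gene end the gain was 12 points (10.5 to 13.5).

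Within the gene the gain was not even. Exon 1 was at 0% of 58 calls in WT, which allows up to 5.17%, and at 2.56% of 39 calls in TCKO. Intron 1 went from 1.63% to 20.1%, a gain of 18.5 points (14.1 to 23.2). The 51 other exons together went from 46.2% (1014 calls) to 86.1% (832 calls), and the 50 other introns from 40.6% (2684 calls) to 85.6% (2271 calls). The exons gained 39.9 points (35.9 to 43.7) and the introns 45 points (42.6 to 47.3). The gain of the introns was larger by 5.08 points, with a 95% interval of 0.625 to 9.68. The exon pool holds exons 49, 50 and 51, at 96.7%, 84.8% and 87.5% in WT, where little room for a gain is left. Their part in this difference was not tested. The difference also varied with the strand. On plus-strand cytosines alone the exons gained 45.1 points and the introns 45.9, and on minus-strand cytosines 36.2 and 44.4.

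**Figure D1:**
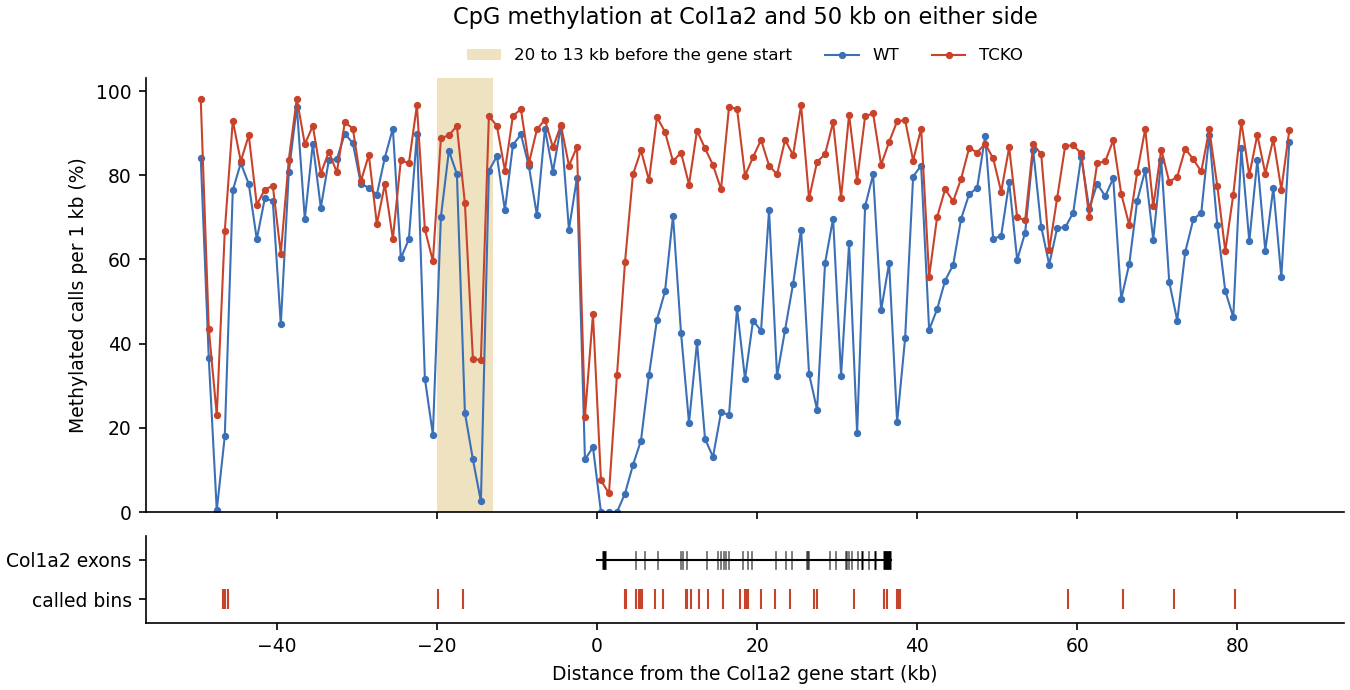
Methylated calls per 1 kb (%) in the WT library (blue) and the TCKO library (red) against distance from the Col1a2 gene start (kb), with exons and the called 200 bp bins below and the zone 20 to 13 kb upstream shaded. The libraries lie apart along the gene past its first kilobases, at 37.7% and 77.8% over the whole gene, and close together over most of the flanks.

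**Figure D2:**
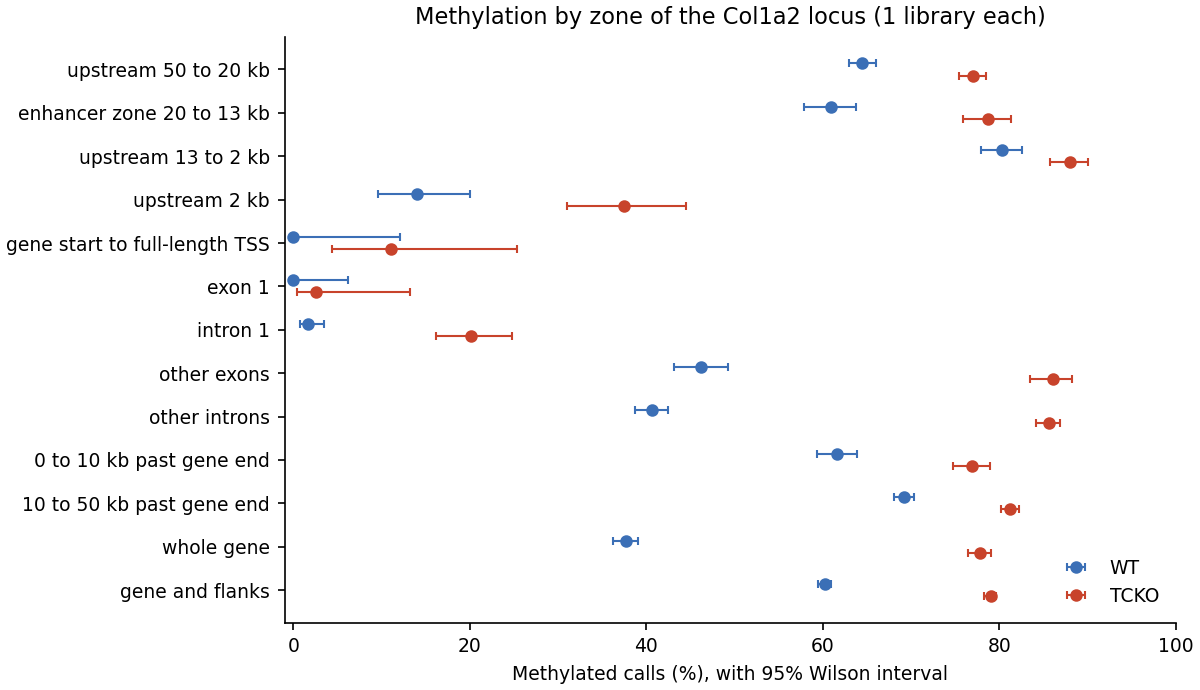
Methylation level (%) of each zone in the WT library (blue) and the TCKO library (red), with bars for the 95% Wilson interval of 1 library each. The bars of exon 1 overlap at 0% and 2.56%, and those of the other introns lie apart at 40.6% and 85.6%.

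Of the 213 testable bins, 38 gained 40 points or more, and all 38 also passed the adjusted threshold (adjusted p below 0.05, with the Fisher exact test run 2-sided on pooled calls and its p-values adjusted after Benjamini and Hochberg over all 2487317 testable bins). They are named called bins here. The share of 17.8% stands beside 2.92% over all testable bins of the genome. No bin lost 40 points, 189 were higher in TCKO and 21 were lower. A further 23 bins gained 40 points or more below the depth minimum and were not tested. Among all 309 bins with at least 4 CG cytosines at any depth, 61 thus gained 40 points, beside 4.72% of such bins in the genome. Every called bin gained at least 20 points on each strand taken alone. With a minimum mean of 10 calls per cytosine, 8 of 50 testable bins were called.

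The called bins were spread along the gene and lacking at its start. Bins that touch an exon of the full-length transcript gave 13 called of 23 testable, and bins inside introns 13 of 25. Bins that touch an exon can also hold intron DNA. In the called bins from 4520401 and 4523401 every CpG lies in an intron. Together 26 of 48 testable bins of the gene were called (54.2%), 46 were higher in TCKO, 0 were lower and 2 were equal. The enhancer zone held 2 of 11, the outer 30 kb of the upstream flank 3 of 42, the first 10 kb past the gene end 3 of 26 and the following 40 kb 4 of 72. From 13 to 2 kb upstream 0 of 12 were called and in the 2 kb before the gene start 0 of 2. None of the 4 testable bins inside intron 1 was called, and exon 1 had no testable bin. The first called bin of the gene, from 4508201, spans the end of intron 1 and the short exon 2 and went from 7.32% of 41 calls to 60.5% of 43 calls.

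The share of called bins varied with the WT level. Of 30 testable bins below 20% in WT, 15 were called (50%), and of 54 bins at 20% to 60%, 23 were called (42.6%). The genome gave 36.2% and 10.4% of the bins in these classes. Of the 129 bins at 60% or above in WT, where the scale leaves hardly any room for a gain of 40 points, 0 were called. The called bins had a median level of 21.1% in WT and 83.4% in TCKO, beside medians of 26.3% and 81.3% over the genome's 72557 called bins. In TCKO all 38 lay between 52.5% and 97.1%. At the rule's edge, the bins just outside it gained 38.9 points (upstream, from 4483201) and 39.4 points (exon 25, from 4523001), and those just inside it gained 40.9 points (intron 24) and 41.8 points (the 3′ flank, from 4563601).

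**Figure D3:**
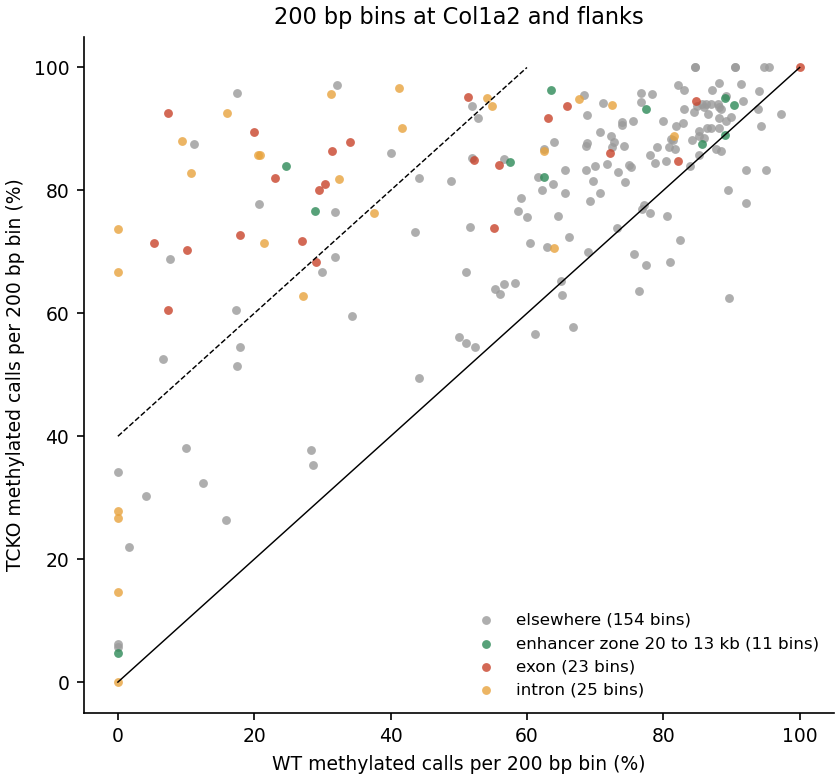
TCKO level against WT level (%) of the 213 testable 200 bp bins, with bins that touch an exon red, in introns orange, in the enhancer zone green and elsewhere grey. The solid line marks equal levels and the dashed line a gain of 40 points. Of the 48 bins of the gene 26 lie above the dashed line, and no bin of the region gained 40 points from a WT level of 60% or more.

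The 5′ end of the gene needs both of its annotated starts. The gene start belongs to transcript Col1a2-205, which ends at 4516419, while the full-length transcript Col1a2-201 with its 52 exons starts 679 bp further on, at 4505493. The RefSeq start is 125 bp beyond that. In the 2 kb before the gene start the level was 14% in WT (9.62% to 20%, 171 calls) and 37.5% in TCKO (31% to 44.5%, 192 calls). The gain was 23.5 points (14.6 to 31.8), with an adjusted p of 8.73e-06 (Fisher exact test over 21907 protein-coding genes). Of those genes 24.7% were called higher in TCKO, so a call there was common, and 4% of the 20892 genes with at least 50 calls in each library gained as much. The gain was smaller on minus-strand cytosines alone (11.9 points), as the mean of cytosine levels (15.5 points) and over 2 kb on either side of the gene start (13.5 points). It was larger on plus-strand cytosines alone (29.5 points). From 1 kb before to 100 bp after the gene start it was 33.6 points (21.6 to 44.1), from 14.3% to 47.9%.

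Upstream of the gene start the CpGs differed among themselves. Those at positions -741 and -734 relative to the gene start went from 10.5% to 45.5% and from 25% to 63.6% (19 and 20 calls in WT, 33 in TCKO at each). Those at -1508 and -1008 went from 0% to 4.17% and from 14.8% to 16.7%, with 18 to 27 calls each. The bin that holds the first pair, from 4504001, went from 17.9% to 54.5% (adjusted p = 0.00582, Fisher exact test), and its gain of 36.6 points fell short of the rule.

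The CpG-dense DNA around the full-length TSS was unmethylated in both libraries as far as its depth shows. The 31 CpGs from -300 bp relative to this TSS to the end of exon 1 had 0 methylated of 76 calls in WT, which allows up to 3.95%, and 2 of 70 in TCKO (2.86%, interval 0.787% to 9.83%). The printed promoter stretch has 5 CpGs, and its first base ends another. Over these 11 cytosines 0 of 7 calls were methylated in WT, which allows up to 42.9%, and 0 of 10 in TCKO, which allows up to 30%. No CpG of the 31 had more than 5 calls in WT or 9 in TCKO, and 6 had no call in TCKO. A gain above 9.83 points was therefore not seen over this window, while a gain at a single CpG was not detectable at this depth. Measured from 1 kb before to 100 bp after the full-length TSS, the level went from 5.97% to 22.2% and did not pass the threshold (adjusted p = 0.069, Fisher exact test).

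Further into intron 1 the TCKO level was higher. Its first part, from 4505910 to 4507122, went from 0% of 245 calls, which allows up to 1.22%, to 9.17% of 229 calls, and its second part, up to 4508334, from 4.92% of 122 calls to 44.2% of 104 calls. The annotated transcript Gm43921 lies within this intron. The testable bins from 4506601, 4506801 and 4507001, all at 0% in WT, were at 14.6%, 27.8% and 26.7% in TCKO, with adjusted p of 0.0943, 0.118 and 0.0147 (Fisher exact test). The bin from 4506001 was at 0% of 48 and of 43 calls. At exon 2, whose 2 CG cytosines form a single CpG, the level in TCKO was already high. It was 75% of 16 calls, against 0% of 15 calls in WT, which allows up to 20%.

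The low-methylated stretch at the TSS was shorter in TCKO. The run of CpGs with a level below 50% in a moving window of 5 CpGs spanned 9765 bp in WT, from -2426 to 7338 bp relative to the gene start, and held 110 CpGs. In TCKO it spanned 2713 bp, from 391 to 3103 bp on the same scale, and held 53 CpGs. With a window of 9 CpGs it spanned 3411 bp from -96 bp in TCKO and 9795 bp in WT, and with a threshold of 20% it spanned 1559 bp and 7089 bp. A second run of 12 CpGs remained in TCKO from -1941 to -277 bp, where the level was 36.8% in TCKO and 13.8% in WT. The CpGs between these runs, from -221 to 154 bp, had at most 4 calls each in TCKO. The split of the runs and the left border of the first rest on these few calls. Over the WT stretch as a whole the level went from 11.7% (1152 calls) to 49.5% (1049 calls). Its borders were set on the WT levels, so this contrast is a description. Of the windows within the gene, 68.7% of 358 were below 50% in WT and 15% of 353 in TCKO. Such runs of 5 or more CpGs that overlapped the gene numbered 12 in WT and 1 in TCKO.

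**Figure D4:**
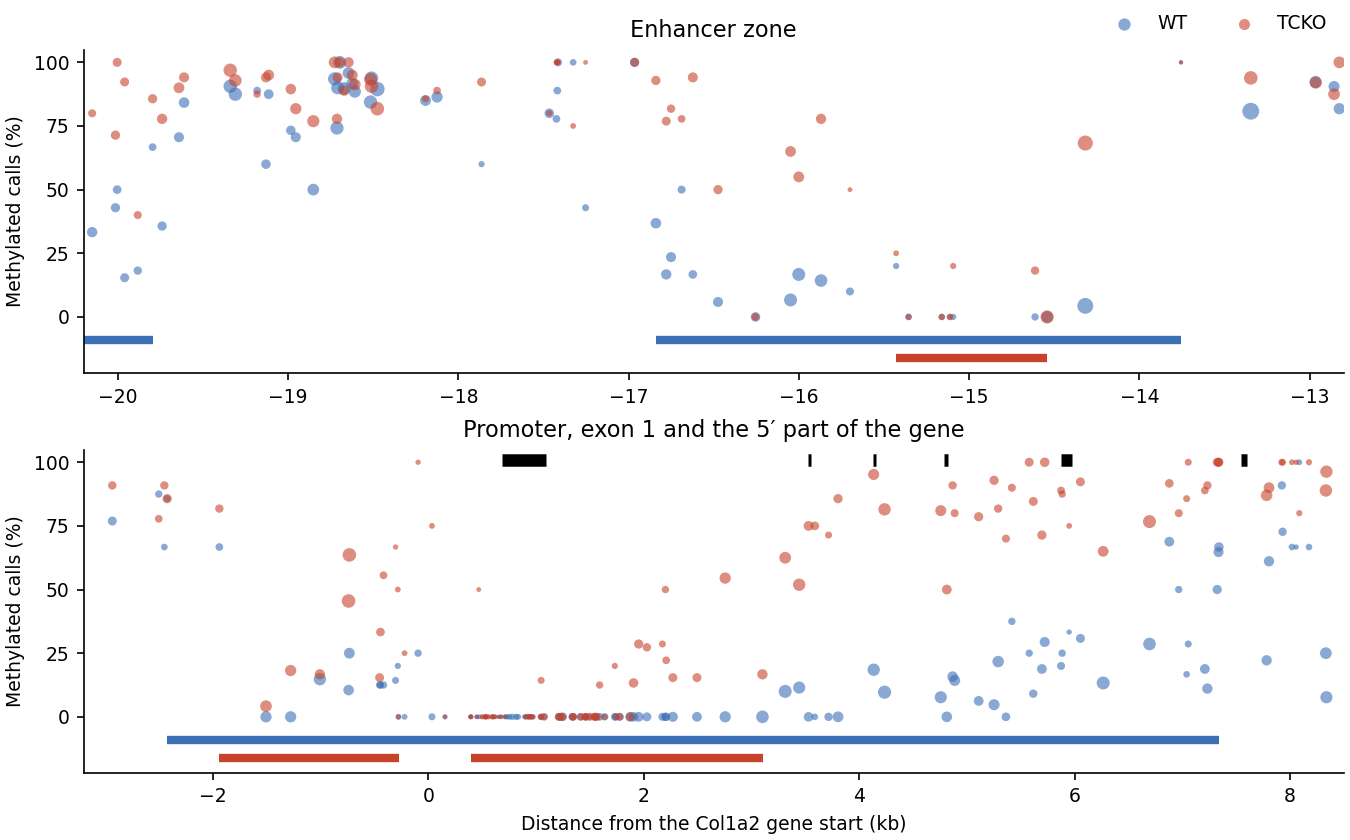
Level of single CpGs (% of calls, point area growing with the number of calls) in the WT library (blue) and the TCKO library (red) against distance from the gene start (kb), in the enhancer zone (top) and at the 5′ end of the gene (bottom, exons in black along the top). Bars below 0 mark runs of CpGs under 50%, which span 9765 bp in WT and 2713 bp in TCKO around the TSS, and 3086 bp and 889 bp in the enhancer zone.

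The enhancer zone went from 60.9% (57.9% to 63.8%, 1048 calls) to 78.7% (75.9% to 81.3%, 869 calls), a gain of 17.8 points (13.8 to 21.8), but most of it was methylated in both libraries. Of its 11 testable bins, 7 were above 60% in WT, and none of these gained 40 points. The largest gain among the 7 was 32.7 points, from 63.6% to 96.3%, in the bin from 4487801 (adjusted p = 0.0496, Fisher exact test). The bin printed above, from 4488001, went from 24.6% of 57 calls to 84% of 50 calls, a gain of 59.4 points (41.7 to 71.5, adjusted p = 8.1e-08, Fisher exact test). Its 4 CpGs, at positions 35, 63, 125 and 191 of the printed sequence, went from 16.7% to 76.9%, from 23.5% to 81.8%, from 50% to 77.8% and from 16.7% to 94.1%. The other called bin, from 4484801 at the far edge of the zone, went from 28.9% to 76.7% (adjusted p = 0.000771, Fisher exact test). It lies just before the start of Gm37883, an annotated transcript on the minus strand.

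The low interval of the zone, its borders set on the WT levels, reached from -16840 to -13755 bp relative to the gene start. It held 20 CpGs over 3086 bp and went from 12.3% of 310 calls to 52.1% of 257 calls. Its centre stayed low. The 7 CpGs from -15429 to -14541 bp were at 1.75% of 57 calls in WT and 5.88% of 68 calls in TCKO, a difference of 4.13 points (-4.21 to 12.5). The 11 CpGs on the outer side went from 16.5% of 206 calls to 68.7% of 147 calls, a gain of 52.2 points (42.5 to 60.4). The borders of this centre were set on the TCKO levels, so the contrast is a description. One CpG on the outer side, at -16255 bp, stayed at 0% of 15 and of 9 calls between neighbours at 50% and 65% in TCKO.

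From exon 2 to its end the gene was partly methylated in WT and mostly methylated in TCKO. Cut into 3 parts of equal length, this stretch had a WT level of 31.1% (28.5% to 33.9%), then 41.9% (39.3% to 44.5%), then 52.9% (50% to 55.7%). In TCKO the level was 85.1%, 85.4% and 86.7%, with overlapping intervals from 82.8% to 88.6%. The gain was 54 points in the first part (50.4 to 57.3), 43.5 in the second (40 to 46.7) and 33.8 in the last (30.2 to 37.2). These intervals do not overlap, and those of the WT levels do not either, while those of the TCKO levels do.

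Of the 52 exons, 13 had at least 20 calls in each library, and 7 held no CpG. All 13 had a higher level in TCKO, by 1.58 to 76.7 points, and 5 gained 40 points or more. Exon 3, whose 2 CG cytosines form a single CpG, went from 18.5% of 27 calls to 95.2% of 21 calls. Exon 11, one of the many short exons that encode the Gly-X-Y repeat of the triple helix, went from 4.17% of 24 calls to 72.7% of 44 calls. Exons near the 3′ end were methylated already in WT. Exon 49 was at 96.7% of 30 calls in WT and 98.2% of 57 calls in TCKO, exon 50 at 84.8% and 94.6% and exon 51 at 87.5% and 97.7%. These encode much of the C-propeptide, which joins the chains before they fold and is then cut off. Exon 52, which ends in the 3′ untranslated region, was at 45% of 151 calls and 80.5% of 113 calls. Exon 41 was at 86.5% and 90%, with an interval of the difference from -18 to 19.7 points.

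All 29 introns with at least 20 calls in each library were higher in TCKO, and 16 gained 40 points or more. The gains ran from 8.53 to 81.8 points with a median of 43. Intron 2 went from 0% of 37 calls, which allows up to 8.11%, to 78.8% of 33 calls. Intron 4 went from 15.7% of 172 calls to 85.9% of 135 calls, and intron 37 from 9.52% of 21 calls to 91.3% of 23 calls. Intron 27 gained least among them, from 62.9% of 62 calls to 71.4% of 28 calls, with an interval of the difference from -13 to 26.8 points.

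Among testable bins the largest gain was in a bin that spans the end of intron 13 and the start of exon 14. The bin from 4518601, printed above, went from 7.41% of 27 calls to 92.6% of 27 calls, a gain of 85.2 points (62.6 to 92.8). Its CpG at position 128, in intron 13, was at 10% of 20 calls in WT and 93.3% of 15 calls in TCKO. The CpG at position 197, in exon 14, was at 0% of 7 and 91.7% of 12. Of the testable bins that of intron 29 followed, from 9.38% of 64 calls to 88.1% of 42 calls, a gain of 78.7 points (62.5 to 87.1). The bin of intron 6 went from 16% of 50 calls to 92.6% of 54 calls, a gain of 76.6 points (60.5 to 85.5). A bin below the depth minimum, from 4520601 at exons 20 and 21, went from 7.14% of 14 calls to 88.9% of 18 calls and was not tested. The intron bins both have CpGs at only 2 places and the deepest calls of the 3 printed bins of the gene. Every CpG of the 3 was at or below 25% in WT and at or above 81.8% in TCKO.

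Further bins among the 10 largest gains of testable bins were found from intron 2 to intron 38. The bin from 4508401 in intron 2 went from 0% of 17 calls, which allows up to 17.6%, to 73.7% of 19 calls, and that from 4510001 in intron 4 from 10.7% of 56 calls to 82.9% of 35 calls. The bin from 4520401, which touches exon 20 but has its CpGs in intron 19, went from 5.26% of 19 calls to 71.4% of 21 calls. At exon 38 the bin from 4531801 went from 20% of 40 calls to 89.5% of 38 calls, and beside it in intron 38 the bin from 4532201 went from 0% of 31 calls, which allows up to 9.68%, to 66.7% of 30 calls. All of these had an adjusted p below 0.001 by the Fisher exact test, the largest being 0.000718 in the bin from 4520401. The bins were picked by their gains in the same calls, so these p-values add no separate support. The gains of this group ran from 66.2 to 73.7 points, and their intervals overlapped one another.

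The remaining pair of the 10 lay just past the gene end. Bins from 4542201 and 4542401 went from 17.5% to 95.8% and from 11.1% to 87.5%, and the next bin was called as well. The 600 bp that the 3 bins cover together went from 20.9% of 86 calls to 94.7% of 75 calls, a gain of 73.7 points. The zone from the gene end to 10 kb beyond went from 61.6% to 76.9%, and its 3 called bins were the 3 of this short interval next to the gene. Beyond 10 kb the 4 called bins were isolated. The bin from 4570401 lies in the processed pseudogene Gm18289 and went from 7.69% of 26 calls to 68.8% of 16 calls.

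Far upstream, a cluster of 3 called bins had their midpoints between -46714 and -46114 bp relative to the gene start, where no gene is annotated. They belong to a stretch of 37 CpGs and 2883 bp that was low in WT and went from 11.6% of 527 calls to 43.8% of 422 calls. The outer 1996 bp of it stayed below 50% in TCKO, at 27.6% against 7.86% in WT. The bin with the highest TCKO level of this cluster, from 4458601, went from 20.7% to 77.8%. As in the enhancer zone and at the TSS, a shorter run of low CpGs remained in TCKO inside the one found in WT. Over the region as a whole, such runs numbered 25 in WT and 8 in TCKO and covered 38859 bp and 8470 bp.

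The gene body was set beside those of other genes. Its gain of 40.1 points had an adjusted p of 1.67e-280 (Fisher exact test over 21878 protein-coding genes), but 63.6% of these genes were called higher in TCKO, so its size says more than its call. Of 21307 genes with at least 50 calls in each library, 8 gained as much or more, Col1a2 included, and the median gain was 5.69 points. The other 7 were under 4 kb long. Of the 14163 genes of 10 kb or more, Col1a2 had the largest gain, beside a median of 6.28 points. This rank depended on the window. Without the first 5 kb of each gene, 12 of 17005 genes gained as much as Col1a2 (42 points), itself included. A WT body level as low as its 37.7% was found in 5.64% of the 21307 genes. Its share of called bins within the gene (54.2%) was the highest of the 9654 genes with at least 20 testable bins, whose median share was 2.04%. The next was Csrp2 with 43.5%. Counted with 50 kb on either side, a share as high as 17.8% was reached by 2 of 20576 genes, the other being Prrx1 (also named Prx1), whose regulatory DNA drives the Cre transgene, with 23.1%. Csrp2 and Prrx1 were named after their values were seen.

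**Figure D5:**
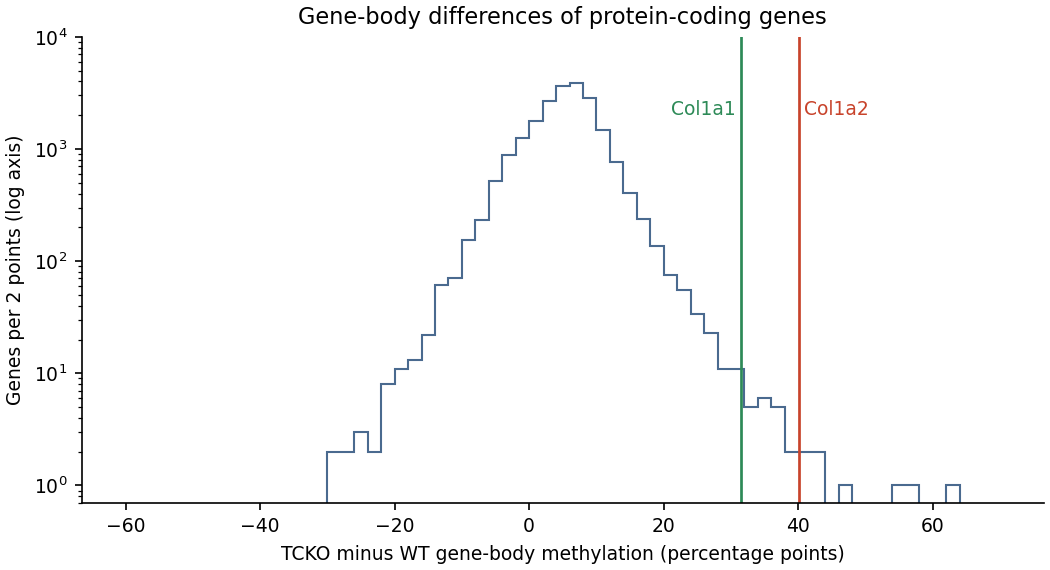
Number of protein-coding genes (log axis) by the TCKO minus WT difference in gene-body methylation (percentage points), in steps of 2 points over 21307 genes. Lines mark Col1a2 at 40.1 points and Col1a1 at 31.5 points, both in the upper tail of a distribution with a median of 5.69.

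Col1a1, the gene of the partner chain on chromosome 11, gained in another pattern. Its body went from 12.1% of 1469 calls to 43.6% of 1244 calls, 31.5 points, which is 8.6 points less than Col1a2 (95% interval of the difference 4.81 to 12.4). Without the first 5 kb of each gene the order turned. Col1a1 went from 20.5% to 73.1% and Col1a2 from 44% to 86%, and the gain of Col1a2 was lower by 10.5 points (-15.3 to -5.46 as Col1a2 minus Col1a1). In the first 5 kb Col1a1 went from 2.09% to 13.6% and Col1a2 from 3.4% to 34.6%. In the 2 kb before the gene start Col1a1 went from 7.94% to 49.1% (adjusted p = 3.78e-16, Fisher exact test), and the gain of Col1a2 minus that of Col1a1 was -17.7 points (-29.8 to -5.49). From 1 kb before to 100 bp after its start, Col1a1 had 0 methylated of 33 calls in WT and of 25 in TCKO. In this window Col1a2 gained 33.6 points at its gene start. At the full-length TSS the gain of Col1a2 minus that of Col1a1 was 16.3 points (-1.9 to 33.1). The order of the 2 promoters thus varied with the window. Col1a1 with its flanks had 14 called of 110 testable bins (12.7%). Its body held only 7 testable bins, of which 0 were called, too few for the rank of shares within genes given above.

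The genes most like Col1a2 were sought over 6 levels, namely those of the 2 kb upstream, the first 5 kb and the rest of the body in each library. Among 13727 genes the 5 nearest were Tns2 (an Euclidean distance of 25.5 points), Scd2 (28.3), Fam129b (29.5), Wnt9a (30.1) and Mypop (30.1), and Col1a1 ranked 51 at 36.5. The nearest differed from it most in the rest of the body, where Tns2 went from 57.6% to 70.1%, against 44% to 86% in Col1a2.

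The other genes of collagen I synthesis were described from a list of 23, Col1a2 included, that hold the enzymes and chaperones of the procollagen chain and the proteases and cross-linking enzymes of the fibre. Promoters (2 kb) were called higher in TCKO for 14 of 23 and lower for 0, beside 24.7% of all protein-coding genes, with a median gain of 12.5 points against 4.87. Gene bodies were called higher for 22 of 23, beside 63.6%, with a median gain of 12 points against 5.65. The body of Fkbp10 was the exception, at 74.2% and 77.8% (adjusted p = 0.166, Fisher exact test). Within 2 kb of the gene start 7 of 22 genes with a testable bin held a called one, beside 9.62% of all genes. Col1a2 was not among them, since its called bins begin further into the gene.

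Of the list, the lysyl hydroxylase Plod2, which prepares cross-links in bone collagen, had the largest promoter gain, from 31.8% to 75% (adjusted p = 9.55e-23, Fisher exact test). P4ha1, a subunit of prolyl 4-hydroxylase, went from 14.1% to 40.8% (adjusted p = 1.54e-12, Fisher exact test). The promoter of Sparc, a collagen-binding matrix protein, went from 47.3% to 74.8%, and that of Lox, which starts cross-linking, from 40% to 61.1%. The promoters of Ppib, a prolyl isomerase, and of the collagen chaperone Serpinh1 went from 45.4% to 36% and from 70.4% to 64.6%, with adjusted p of 0.152 and 0.515 (Fisher exact test). Of the bodies, Sparc gained 22.3 points, Pcolce 20.1 and P4hb 20. After Col1a2 and Col1a1, with 40.1 and 31.5 points, no body of the list gained more than 22.3.

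Strings read by 3 transcription factor families were looked up in the bins on either strand. The Runt string AACCACA, read by RUNX2, was found in 0 of the 38 called bins and in 9 of the 175 testable bins that were not called, beside 5.04% of all testable bins of the genome and 9.03% of its called bins. The bZIP string TGAGTCA, whose reverse complement is TGACTCA, was in 4 called bins (10.5%) and 3 others, beside 3.03% and 8.57%. The TEAD string CATTCCA was in 4 called bins (10.5%) and 8 others, beside 3.21% and 5.58%. The bZIP bins were those of intron 6, intron 29, exon 38 and intron 38, all among the 10 largest gains of testable bins. In the printed intron 29 and intron 6 bins the string TGAGTCA begins at position 154 and position 114. A match is a description of the letters only, and with 38 bins these shares rest on few matches.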

How the data were processed

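WGBS calls of 1 WT and 1 TCKO library were used. Reads were aligned by the authors to GRCm38 with BSMAP 2.74 (up to 2 mismatches, uniquely mapped reads); the deposited values are the counts of methylated and of all calls per CG cytosine and strand, without normalization. Removal of duplicate reads and conversion rates are not given in the sources used here. Calls of 1 read are not independent.

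Levels were pooled calls of both strands. Bins of 200 bp needed at least 4 CG cytosines with a call and a mean of 4 calls per cytosine in each library. Pooled calls were compared by Fisher's exact test (2-sided), p-values were adjusted after Benjamini and Hochberg over all testable bins of the genome, and bins were called at an adjusted p below 0.05 with a gain of 40 points. The script was first tested on simulated data. Bins were placed by overlap with exons, then by midpoint. Zones have Wilson and Newcombe 95% intervals and no test. Shares of 0 were limited by 3 counts of the total. Median depth was 4 calls per covered cytosine in each library.

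The gene, zones and lists were chosen with earlier results of these data known. Named genes were Col1a2, Col1a1, genes within 50 kb, the list of 23 and the 5 nearest genes; named bins were the 10 largest gains and called bins of the enhancer zone, promoter, exon 1 and intron 1. Other bins and the CpGs were named after their values were seen. Alternatives changed depth, threshold, grid, strand, deepest cytosines, windows and the TSS. Python 3.11.15, numpy 2.4.6, scipy 1.17.1, pandas 2.3.3, numba 0.67.0 and matplotlib 3.10.9 were used. RNA and other assays were not analysed here, and 1 stretch is not reported here.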

Additional observations from a re-analysis of the deposited data

How the results depend on the processing

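With 1 library per genotype no result has a replicate check. No paired analysis was possible because each genotype has 1 library and the labels give no replicate numbers. The 38 called bins became 8 of 50 testable bins at a mean of 10 calls per cytosine (16%, beside 1.94% of the genome), a setting that tests fewer bins, and lay between 27 and 53 under the other depth, gain, grid, strand, deepest-cytosine and unadjusted settings. The promoter gain kept its direction in each window, but 1 kb before to 100 bp after the full-length TSS, a start added after seeing the data, it was 16.3 points and no longer passed. Zones that moved beyond their interval kept their direction. On minus-strand cytosines only, the gain was 11.9 points in the 2 kb upstream, 24.4 in intron 1 and 19.9 in the first 10 kb past the gene end. On plus-strand cytosines only, it was 12.5 in intron 1 and 45.1 in the other exons. As the mean of cytosine levels it was 19.1 in the first 10 kb past the gene end and 20.6 over the gene and flanks. With a threshold of 20% in place of 50%, which is stricter by construction, the TCKO stretch at the TSS was 1559 bp. For the strand and averaging settings the cause was not tested. Depth limits the CpGs at the full-length TSS, with a median of 2 calls in each library.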
